A study of Mus musculus with 6 samples.

Results

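The genes described here are 42 mouse genes of DNA replication and S phase, the stage of the cell cycle in which the genome is copied. They were chosen by name for what their proteins do, by a rule that uses no measured value. The choice was made with earlier results of these data known, so the set is not independent support. All 42 were found among the 56350 genes of the deposited table of raw read counts. The study sequenced polyA RNA from mouse liver in 6 libraries and compared 2 groups of livers. Atg14, the targeted gene, codes for a protein that directs a lipid kinase to the sites where autophagosomes form. The 3 libraries of the HepKO group are labelled as a hepatocyte-specific knockout of Atg14, and the 3 libraries of the WT group are labelled wild-type. No source used here gives the Cre line, age, sex, strain, diet or time of collection. Whether the libraries of a group stem from different animals is not labelled, so the p-values measure the spread between these libraries, which may be in part technical.

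A chromosome is copied in a fixed order of steps. The origin recognition complex (Orc1 to Orc6) marks the start sites, and Cdc6 and Cdt1 load the MCM2-7 helicase there, a step called licensing that geminin (Gmnn) blocks outside its proper time. Cdc45, the GINS complex and Mcm10 then switch the helicase on, and polymerases, the sliding clamp, its loader and a ligase build the new strands. Other proteins supply the deoxynucleotides, restore histones and DNA methylation on the copied DNA, and watch over stalled forks. Hepatocytes of an adult liver rarely divide, and they re-enter the cycle after loss of liver mass or injury. Many genes of this set are textbook targets of the E2F transcription factors, which the retinoblastoma protein holds back in resting cells.

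Because the E2F link is the textbook account of this gene set, the letters of the E2F site were looked up in the sequence before the gene starts. The stretches printed are from RefSeq (GRCm38.p6), are the 200 bases directly upstream of the annotated start and are written 5′ to 3′ on the strand of the gene. Capitals mark letters that match 1 of the 4 forms TTTCCCGC, TTTCGCGC, TTTGCCGC or TTTGGCGC on either strand. Mcm6 (chr1:128359706-128359905, minus strand) and Mcm5 (chr8:75109309-75109508, plus strand) rose in HepKO livers and held matches. Mcm2 (chr6:88898781-88898980, minus strand) and Mcm3 (chr1:20820313-20820512, minus strand) rose as well and held none. Mcm10 (chr2:5012792-5012991, minus strand) is shown as the gene with the lowest fold change of the set, and it held none.

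Mcm6: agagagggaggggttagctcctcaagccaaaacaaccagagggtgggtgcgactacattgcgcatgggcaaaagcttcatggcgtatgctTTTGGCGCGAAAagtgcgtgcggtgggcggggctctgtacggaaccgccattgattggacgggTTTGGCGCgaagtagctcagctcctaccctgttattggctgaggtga
Mcm5: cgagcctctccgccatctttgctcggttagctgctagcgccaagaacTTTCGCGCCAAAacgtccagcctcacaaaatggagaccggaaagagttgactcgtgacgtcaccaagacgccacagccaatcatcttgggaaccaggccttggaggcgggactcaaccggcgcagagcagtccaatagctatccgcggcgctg
Mcm2: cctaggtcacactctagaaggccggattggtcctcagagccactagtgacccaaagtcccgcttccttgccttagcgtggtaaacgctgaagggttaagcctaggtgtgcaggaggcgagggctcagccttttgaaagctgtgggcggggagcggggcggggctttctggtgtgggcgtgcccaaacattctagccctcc
Mcm3: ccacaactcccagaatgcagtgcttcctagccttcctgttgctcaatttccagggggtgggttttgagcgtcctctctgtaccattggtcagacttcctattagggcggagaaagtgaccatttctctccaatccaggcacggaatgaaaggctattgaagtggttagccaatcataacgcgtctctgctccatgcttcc
Mcm10: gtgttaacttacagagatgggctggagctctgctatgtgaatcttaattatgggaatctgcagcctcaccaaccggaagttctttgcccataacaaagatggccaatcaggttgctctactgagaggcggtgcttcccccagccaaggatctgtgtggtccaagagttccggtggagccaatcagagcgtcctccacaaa

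Mcm6 held 3 matches, 2 of which overlapped each other, and Mcm5 held 2 overlapping matches. A RefSeq window was at hand for 34 of the 42 genes, and Gmnn, Gins1, Gins2, Mcm4, Pole, Rfc2, Exo1 and Tipin had none. Genes with several annotated starts were counted once, as holding a match if any of their windows did. In the 250 bases upstream of the start, 10 of the 34 windows (29.4%) held an E2F match, against 408 of 11093 tested genes with a window (3.68%). The 10 genes were Orc1, Cdc6, Mcm5, Mcm6, Mcm7, Pola1, Rfc3, Uhrf1, Dnmt1 and Hells. A match was present in 7 of the 15 windows of genes that rose (46.7%), in 3 of the 17 of genes that were not called (17.6%) and in neither of the 2 of genes that fell, Mcm10 and Tk1. Over all tested genes, the match was about as rare before genes that rose in HepKO (83 of 2349, 3.53%) as before genes that fell (77 of 2274, 3.39%). The CCAAT box, searched as CCAAT on both strands, was present in 61.8% of the 34 windows and in 40.2% of tested genes. The cell cycle homology region, searched as TTTGAA on both strands, was present in 4 of the 34 windows (11.8%) and in 13.5% of tested genes. A match describes the letters in the window and is neither a bound site nor a cause, and a window without a match says only that these letters are not in it.

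Total counts per library ran from 33145684 to 48951937 in HepKO and from 35720011 to 41754560 in WT. Atg14 itself had 5.67, 8.45 and 7.95 CPM (read counts scaled to library size) in HepKO replicates 1 to 3, against 20.9, 22.2 and 21.0 CPM in WT replicates 1 to 3, and its log2 fold change was -1.54 ± 0.16 (SE; edgeR quasi-likelihood test, adjusted p 4.69e-04). CPM are TMM-scaled (trimmed mean of M-values) throughout. This scaling matters for every direction given: the median log2 fold change of all tested genes was 0.01 with TMM and 0.52 with library totals alone, so fold changes are relative to the median gene. HepKO replicate 1 had the sex-linked gene pattern of a female liver, and the other libraries had that of a male liver. Xist had 523 CPM there and 0.0676 to 0.490 CPM in the other libraries, and the Y-linked Ddx3y had 0.0517 CPM there and 66.0 to 102 CPM in the others. By these genes, sex was not balanced between the groups, and HepKO replicate 1 is not from the same animal as HepKO replicates 2 and 3. Results are therefore also given without that library. All 8 hepatocyte markers of a fixed list (Alb, Apob, Ttr, Serpina1a, Tat, G6pc, Hnf4a and Asgr1) were detected and fell, against 18.7% of all tested genes. Their summed level was 38175 to 47140 CPM in HepKO and 88489 to 110780 CPM in WT. Of the 8, 7 were called lower without HepKO replicate 1 and 5 with library totals.

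Of the 42 genes, 18 were called higher in HepKO at an adjusted p under 0.05, against 19.5% of the 16051 tested genes. Only 3 were called lower (Mcm10, Tk1 and Gmnn), against 18.7% of tested genes, and 21 were not called. Over all genes, 38.2% were called in either direction, so a call by itself was common in this comparison. The median log2 fold change of the 42 was 0.60, and that of all tested genes was 0.01. The CPM of all 3 HepKO libraries lay above all 3 WT libraries for 24 of the 42, as they did for 27.1% of tested genes. They lay below for 4 (the 3 called lower and Gins1), as they did for 26.4% of tested genes. A group of 6 genes (Orc1, Cdc6, Gins2, Chek1, Exo1 and Clspn) passed the filter on low counts through the HepKO libraries alone. Among the other 36, 13 were called higher, 3 lower and 20 not. All HepKO libraries lay above all WT libraries for 18 of these 36 and below for 4.

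The counts of called genes depended on the scaling and less on the tool. With library totals, 32 of the 42 were called higher, where 46.4% of all genes were, and Mcm10 alone was called lower, where 5.84% were. DESeq2 called 21 higher and 3 lower, with 21.6% and 19.3% of all genes called in those directions. Limma-voom called 18 higher and 3 lower, with 19.0% and 19.2% of all genes called. Without HepKO replicate 1, 18 were higher, where 16.3% of all genes were, and 3 lower, where 17.5% were, and the median log2 fold change was 0.51. HepKO replicate 1 was the highest HepKO library for 29 of the 42 genes, replicate 2 for 6 and replicate 3 for 7.

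**Figure D1:**
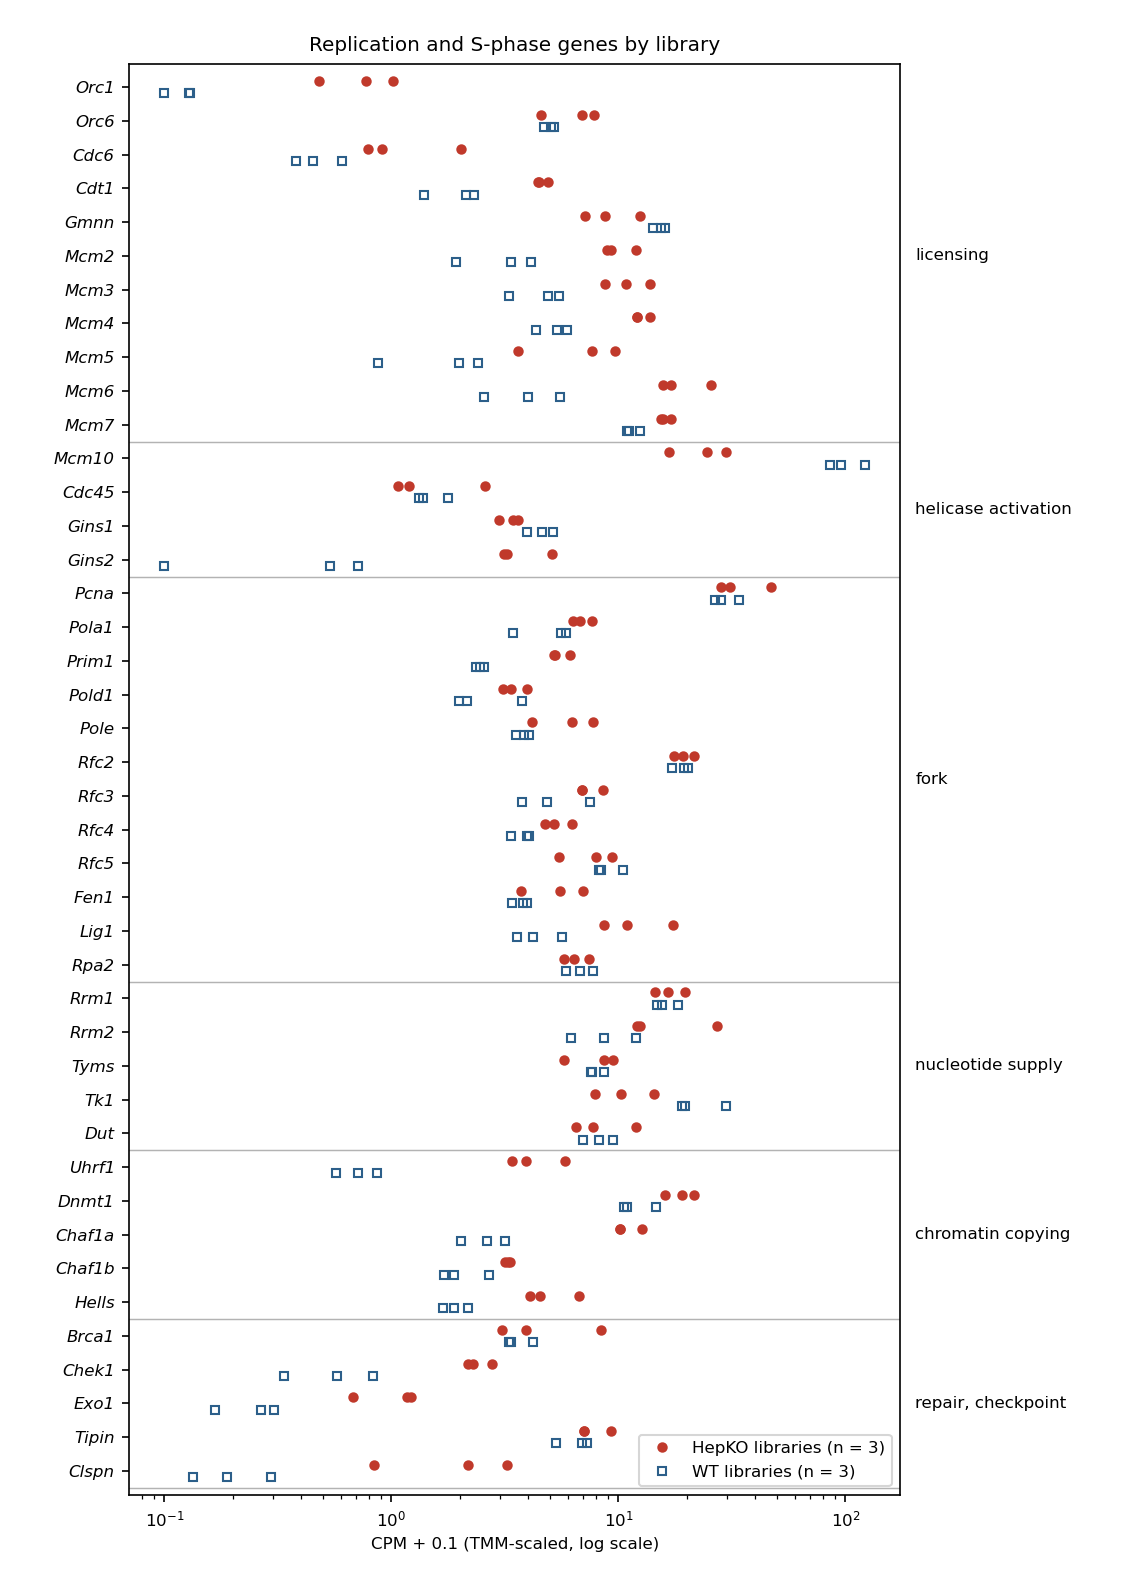
Level of each of the 42 genes in every library, as CPM plus 0.1 on a log axis, grouped by role, with HepKO libraries as filled circles and WT libraries as open squares (n = 3 each). The MCM2-7 genes separate fully between the groups, Mcm10 lies at 16.6 to 29.5 CPM in HepKO and 85.5 to 122 CPM in WT, and the clamp loader genes Rfc2, Rfc3 and Rfc5 overlap.

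The counts by role stand beside 19.5% of all tested genes called higher and 18.7% called lower. Licensing had 8 of 11 genes higher and 1 lower, chromatin copying 4 of 5 higher, and the repair and checkpoint genes 3 of 5 higher. Helicase activation had 1 of 4 higher and 1 lower, and the fork enzymes had 2 of 12 higher and none lower. Nucleotide supply had none of 5 higher and 1 lower. These counts were the same without HepKO replicate 1. With library totals, where 46.4% of all genes were called higher and 5.84% lower, 10 licensing genes were higher and none lower, 10 fork enzymes and 2 nucleotide supply genes were higher and none lower, 5 chromatin genes and 4 repair and checkpoint genes were higher, and helicase activation had 1 higher and 1 lower. The 3 repair and checkpoint genes called higher, and Gins2 in helicase activation, are among the 6 that passed the filter through the HepKO libraries alone, so a higher level in HepKO was a condition of their being tested, and nothing is read from those counts. The median log2 fold changes were 1.30 in licensing, 1.47 in chromatin copying, 2.25 in repair and checkpoint, 0.48 at the fork, 0.06 in nucleotide supply and -0.17 in helicase activation. The value for repair and checkpoint rests on such genes in the same way. Orc1, 1 of the 8 licensing genes called higher, also passed through the HepKO libraries alone, as did Cdc6, which was not called. The licensing count and median therefore rest in part on such genes. A difference between roles was not tested. In bulk tissue, more cells that express a gene and more RNA per cell cannot be told apart.

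**Figure D2:**
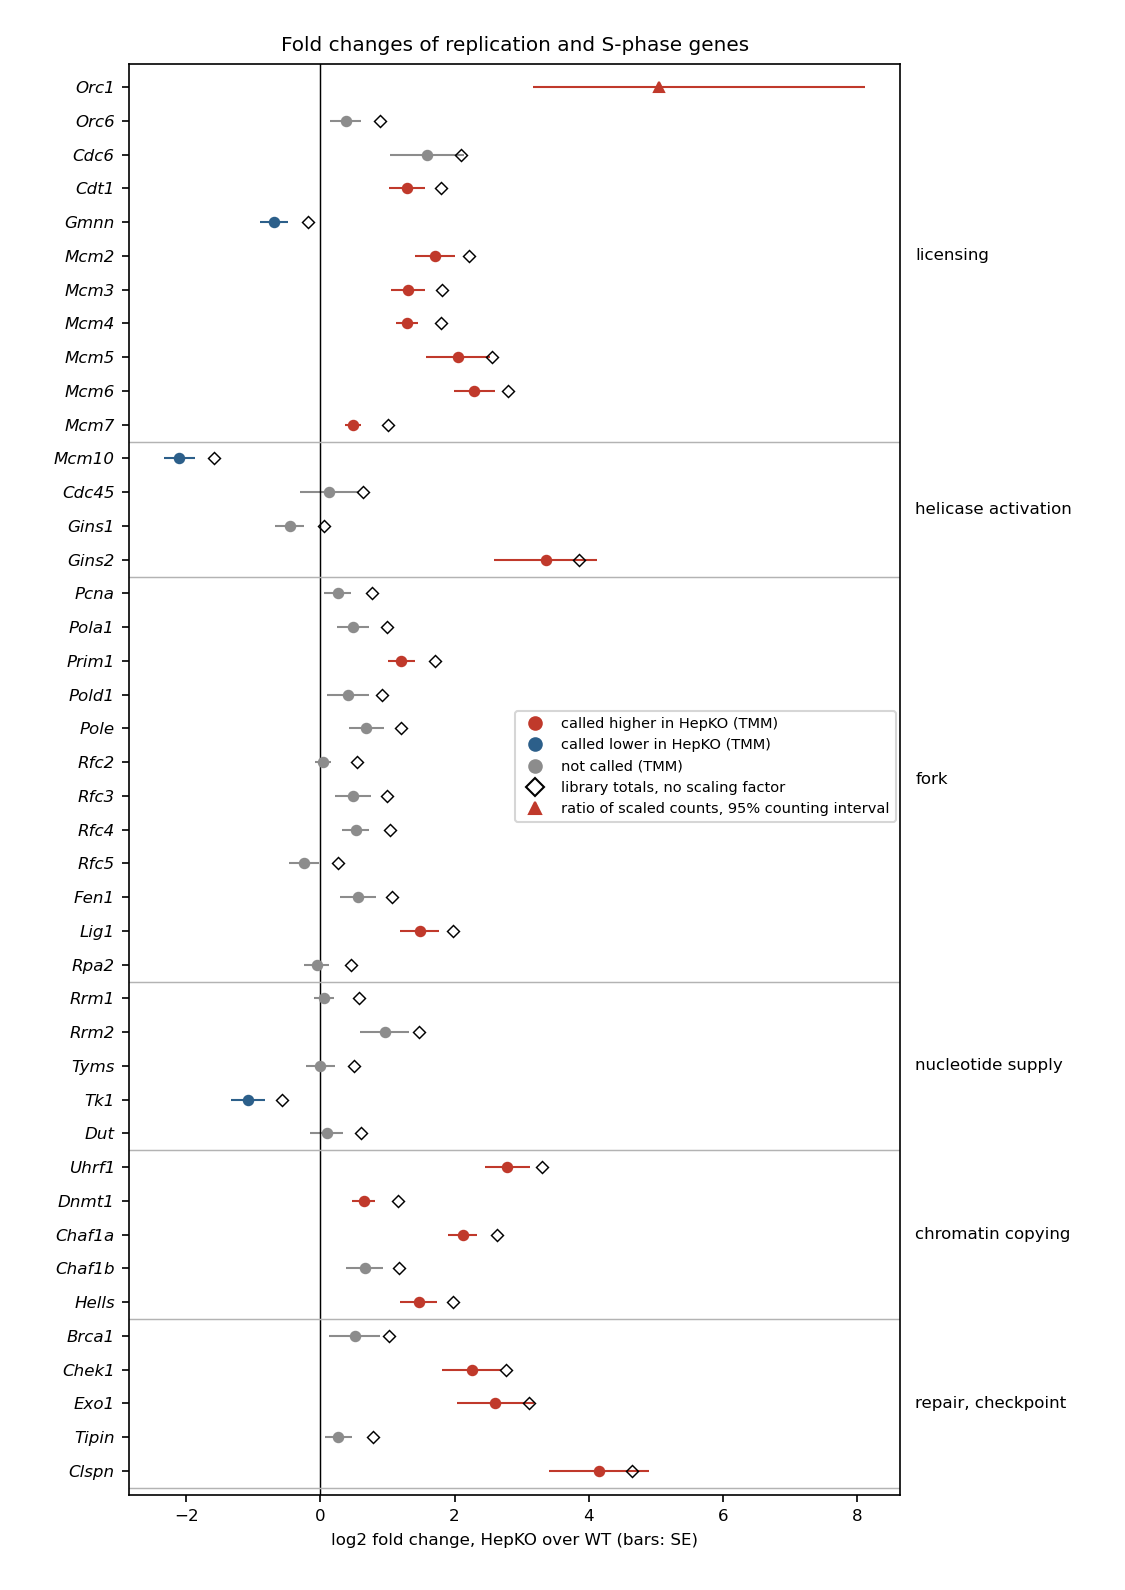
Log2 fold change (HepKO over WT) of each gene with its SE, filled by call, and the value with library totals as an open diamond. Orc1, with 2 counts in WT, is drawn as a ratio of scaled counts with its 95% counting interval. Values run from -2.10 for Mcm10 to 4.15 for Clspn among the genes with enough counts for a fitted fold change, and library totals move each of the other genes to the right.

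Licensing was led by the MCM2-7 helicase, the ring that unwinds the DNA ahead of the polymerases. All 6 subunit genes rose, by log2 fold changes between 0.49 and 2.29. Mcm6 had 25.5, 16.9 and 15.7 CPM in HepKO and 2.47, 5.43 and 3.89 CPM in WT. Its mean was 19.4 ± 5.37 CPM in HepKO and 3.93 ± 1.48 CPM in WT (SD, n = 3 each), a log2 fold change of 2.29 ± 0.31 (SE, adjusted p 0.00111). The HepKO libraries were all well above the highest WT library, with HepKO replicate 1 the highest. Mcm5 had 9.59, 7.58 and 3.51 CPM in HepKO and 0.777, 1.89 and 2.31 CPM in WT, a log2 fold change of 2.05 ± 0.48 (adjusted p 0.0117). The SE of that log2 fold change was the largest of the 6, with HepKO replicate 3 closest to WT.

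Mcm2 had 11.8, 8.83 and 9.22 CPM in HepKO and 1.82, 4.01 and 3.28 CPM in WT, a log2 fold change of 1.71 ± 0.29 (adjusted p 0.00301). Mcm3 had 13.7, 10.7 and 8.61 CPM in HepKO and 3.21, 4.79 and 5.36 CPM in WT, a log2 fold change of 1.30 ± 0.25 (adjusted p 0.00509). Mcm4 had 13.7, 11.9 and 12 CPM in HepKO and 4.22, 5.85 and 5.24 CPM in WT, a log2 fold change of 1.29 ± 0.17 (adjusted p 9.78e-04). In these 3 genes the groups did not overlap, and WT replicate 1 was the lowest library each time. Mcm7 moved least, with 17.0, 15.3 and 15.6 CPM in HepKO and 12.3, 11 and 10.8 CPM in WT, a log2 fold change of 0.49 ± 0.12 (adjusted p 0.0130). Its groups did not overlap either, and with library totals its log2 fold change was 1.0. Of its exon length, 1.45% overlaps Cops6 and 7.25% overlaps Ap4m1 on the opposite strand, and neither of those was called higher.

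The 6 subunits work in equal numbers in the ring, and their transcripts were less unequal in HepKO. Per kilobase of exon, Mcm7 averaged 3.61 CPM in HepKO and 2.57 CPM in WT. The level of Mcm6 was 4.15 CPM per kilobase in HepKO and 0.842 in WT, and that of Mcm4 was 3.49 in HepKO and 1.42 in WT. Mcm3 averaged 2.93 in HepKO and 1.19 in WT, Mcm5 1.73 in HepKO and 0.416 in WT, and Mcm2 1.43 in HepKO and 0.437 in WT. The most abundant subunit exceeded the least abundant by 3.21, 2.85 and 4.01 times in HepKO replicates 1 to 3, and by 14.3, 5.24 and 5.18 times in WT replicates 1 to 3. Mcm7 made up 18.4%, 21.0% and 23.9% of the summed per-kilobase level in HepKO and 48.0%, 32.7% and 33.8% in WT. Mcm6 made up 26.2%, 22.0% and 22.8% in HepKO and 9.11%, 15.3% and 11.6% in WT. None of these 3 measures overlapped between the groups. Each is a ratio within a library, so it does not depend on the scaling. Mcm7 and Mcm6 are the subunits with the smallest and largest fold change, so their shares restate those fold changes and are no separate support. Of single tested genes, 27.1% lay fully above WT in HepKO and 26.4% fully below. Mcm7 was the highest subunit in all 3 WT libraries and in HepKO replicate 3, and Mcm6 was the highest in HepKO replicates 1 and 2.

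**Figure D3:**
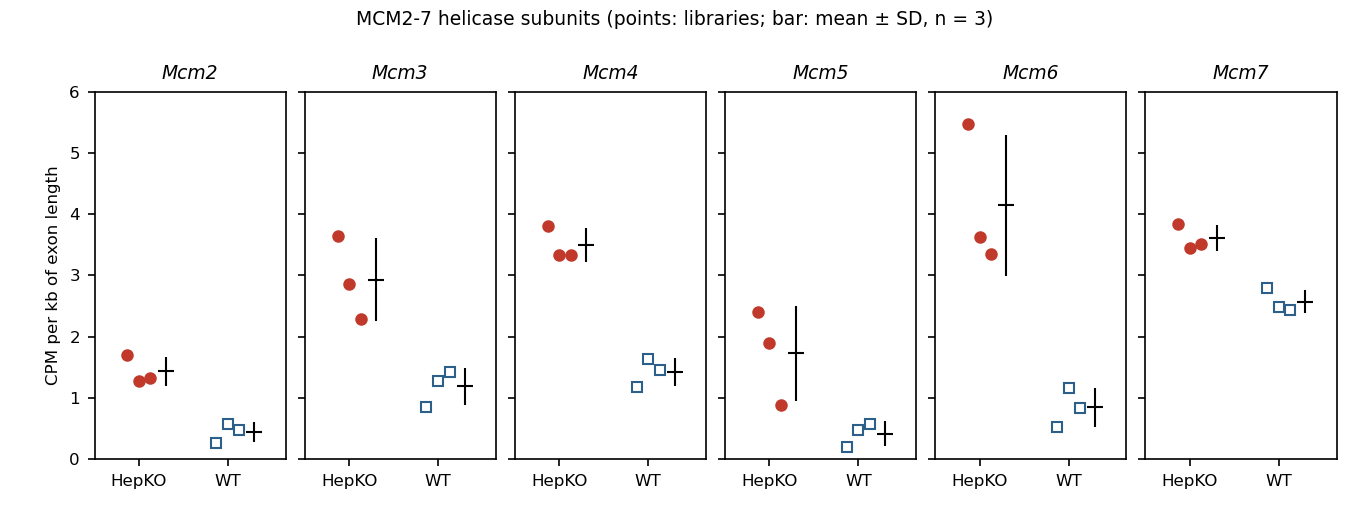
Level of each MCM2-7 subunit gene in CPM per kilobase of exon, by library, with the mean and SD beside the points (n = 3). All HepKO libraries lie above all WT libraries in each panel, and Mcm7 has the highest WT mean, at 2.57.

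The loaders and the brake of licensing did not move together. Orc1, the origin recognition subunit that is made anew in cycling cells, had 39, 41 and 15 counts in HepKO and 0, 1 and 1 counts in WT. The summed counts were 95 in HepKO and 2 in WT, a ratio of 33.3 after scaling with a 95% counting interval of 8.96 to 279 (edgeR adjusted p 0.00305). The interval covers counting error only, and the number of WT reads sets its width. Orc1 passed the filter on low counts through the HepKO libraries alone, so it had to be higher in HepKO to be tested. Cdt1, a helicase loader, had 4.34, 4.81 and 4.37 CPM in HepKO and 2.03, 2.20 and 1.29 CPM in WT, a log2 fold change of 1.29 ± 0.27 (adjusted p 0.00702). The 3 HepKO values of Cdt1 were nearly equal and all above WT.

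Gmnn, which encodes the inhibitor of Cdt1, had 12.4, 7.0 and 8.61 CPM in HepKO and 14.1, 15.3 and 16.0 CPM in WT. Its log2 fold change was -0.69 ± 0.21 (adjusted p 0.0320). The HepKO libraries were all below WT, but the call depended on the scaling and on single libraries. With library totals the log2 fold change was -0.18 (adjusted p 0.481). The call held without HepKO replicate 1 (adjusted p 0.00409). It was lost without HepKO replicate 2 (0.0757), HepKO replicate 3 (0.0933), WT replicate 1 (0.0536), WT replicate 2 (0.0848) or WT replicate 3 (0.101). Cdc6, the other loader, had 0.809, 0.691 and 1.93 CPM in HepKO and 0.507, 0.279 and 0.351 CPM in WT, a log2 fold change of 1.59 ± 0.55 that missed the threshold (adjusted p 0.0535). DESeq2 called Cdc6 (adjusted p 0.0286). It also passed the filter on low counts through the HepKO libraries alone, so the same condition holds for it as for Orc1. Orc6, a small origin recognition subunit, had 6.84, 4.46 and 7.72 CPM in HepKO and 4.93, 4.60 and 5.09 CPM in WT and was not called (adjusted p 0.236).

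Helicase activation held both the lowest fold change of the set and a high one. Mcm10 (chromosome 2, 4989714 to 5012791, minus strand), which binds the assembled helicase and helps it start, had 16.6, 24.5 and 29.5 CPM in HepKO and 95.8, 85.5 and 122 CPM in WT. The means were 23.5 ± 6.54 CPM in HepKO and 101 ± 18.8 CPM in WT (SD, n = 3 each), and the log2 fold change was -2.10 ± 0.23 (adjusted p 4.77e-04). In WT, Mcm10 had the highest CPM of the 42 genes in every library. Its exons overlap no other annotated gene, and the call held with library totals (log2 fold change -1.59, adjusted p 8.12e-04) and without HepKO replicate 1 (-1.91, adjusted p 4.90e-04).

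Gins2, a subunit of the GINS complex, had 4.99, 3.03 and 3.12 CPM in HepKO and 0, 0.613 and 0.439 CPM in WT, a log2 fold change of 3.36 ± 0.77 (adjusted p 0.0109). The groups were far apart, but the size of the fold depended on few WT reads (0, 22 and 15 counts) and was 4.03 without WT replicate 2. Gins2 passed the filter on low counts through the HepKO libraries alone, so a higher level in HepKO was a condition of its being tested. Of the exon length of Gins2, 67.3% overlaps Gse1 on the opposite strand, and Gse1 itself was not called (log2 fold change -0.10, adjusted p 0.669). The other GINS subunit in the set, Gins1, had 3.34, 3.52 and 2.87 CPM in HepKO and 5.07, 4.49 and 3.86 CPM in WT, with a log2 fold change of -0.46 ± 0.21 (adjusted p 0.125). Cdc45, the third part of the active helicase, had 2.50, 1.09 and 0.965 CPM in HepKO and 1.28, 1.67 and 1.23 CPM in WT (adjusted p 0.844). Its log2 fold change was 0.13 with all libraries and -0.45 without HepKO replicate 1. Cdc45 shares 5.96% of its exon length with Ufd1 on the opposite strand, which was called lower (log2 fold change -0.43).

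With TMM scaling, 2 of the 12 fork enzymes were called higher, near the share of all genes. With library totals 10 were, all but Rfc5 and Rpa2. Lig1, the ligase that seals Okazaki fragments, had 17.4, 10.8 and 8.59 CPM in HepKO and 4.12, 5.57 and 3.48 CPM in WT, a log2 fold change of 1.48 ± 0.30 (adjusted p 0.00618). Prim1, the catalytic subunit of primase, had 6.01, 5.10 and 5.18 CPM in HepKO and 2.37, 2.45 and 2.25 CPM in WT, a log2 fold change of 1.20 ± 0.20 (adjusted p 0.00264). Both separated the groups in all libraries, and Prim1 was nearly even within each group. Pcna, the sliding clamp and a common marker of proliferation, had 46.9, 31.0 and 28.2 CPM in HepKO and 26.6, 34.0 and 28.2 CPM in WT. Its log2 fold change was 0.26 ± 0.20 (adjusted p 0.344), and without HepKO replicate 1 it was -0.01. With library totals Pcna was called higher (log2 fold change 0.76, adjusted p 0.0151).

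The 4 clamp loader genes Rfc2 to Rfc5 were not called with TMM scaling and all libraries, and 3 of them were called higher with library totals (Rfc2 0.55, adjusted p 0.00829, Rfc3 1.0, adjusted p 0.0160, and Rfc4 1.04, adjusted p 0.00404). Rfc2 had 19.3, 21.4 and 17.5 CPM in HepKO and 17.1, 20.2 and 19.3 CPM in WT, a log2 fold change of 0.04 ± 0.12 (adjusted p 0.826). It shares 15.1% of its exon length with Lat2 on the opposite strand, which was called higher (log2 fold change 2.43). The other 3 had log2 fold changes of 0.49 for Rfc3, 0.53 for Rfc4 and -0.25 for Rfc5. Rfc4 shares 12.7% of its exon length with Eif4a2 on the opposite strand, which averaged 386 CPM in HepKO and 444 CPM in WT and was not called. Rfc5 shares 10.7% with Wsb2 on the opposite strand, which was called lower (log2 fold change -0.37). The effect of these overlaps on the counts was not tested. Pole, the catalytic subunit of the leading-strand polymerase, had 7.61, 6.15 and 4.06 CPM in HepKO and 3.75, 3.43 and 3.92 CPM in WT, and its log2 fold change of 0.69 ± 0.26 missed the threshold (adjusted p 0.0673). It was called by DESeq2 (adjusted p 0.0382) and without HepKO replicate 3 (0.0240). Log2 fold changes were 0.48 for Pola1, the polymerase subunit that extends primers, 0.41 for Pold1, the catalytic subunit of the lagging-strand polymerase, 0.56 for Fen1, the flap nuclease, and -0.06 for Rpa2, a subunit of the single-strand binding protein. None of these 4 was called with TMM scaling and all libraries (adjusted p 0.133 to 0.832), and Fen1 was called without HepKO replicate 3 (0.0457), as Rfc3 was without WT replicate 1 (0.0338).

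In nucleotide supply, none of the 5 genes was called higher with TMM scaling, and Rrm1 and Rrm2 were with library totals. Tk1, the thymidine kinase of S phase, had 14.2, 7.82 and 10.1 CPM in HepKO and 19.6, 19 and 29.8 CPM in WT, a log2 fold change of -1.09 ± 0.25 (adjusted p 0.0118). All HepKO libraries were below all WT libraries, and the log2 fold change was -1.35 without HepKO replicate 1 (adjusted p 0.00530). With library totals the call was lost (log2 fold change -0.57, adjusted p 0.0837). Tk1 overlaps Afmid, a gene of tryptophan breakdown, on the opposite strand over 83 bases of exon (1.60% of its exon length). Afmid had 22.1, 19.1 and 15.5 CPM in HepKO and 41.3, 49.8 and 62.9 CPM in WT, a log2 fold change of -1.44 ± 0.19 (adjusted p 9.63e-04). No source used here gives the strand setting of the counting, so reads of the 2 genes in the shared bases cannot be told apart.

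Rrm2, the ribonucleotide reductase subunit that is made in S phase, had 27.0, 12 and 12.3 CPM in HepKO and 11.9, 8.55 and 6.09 CPM in WT, a log2 fold change of 0.96 ± 0.36 (adjusted p 0.0704). The groups did not overlap, but the lowest HepKO library was barely above WT replicate 1. Rrm2 was called by DESeq2 (adjusted p 0.0159), without a filter (0.00194) and with library totals (log2 fold change 1.47, adjusted p 0.0113). Without HepKO replicate 1 its log2 fold change was 0.46 (0.226). Rrm1, the partner subunit present through the cycle, had 19.6, 14.5 and 16.5 CPM in HepKO and 15.5, 14.7 and 18.3 CPM in WT (log2 fold change 0.06 ± 0.15 with TMM, and 0.57 with library totals, adjusted p 0.0117). Tyms, the thymidylate synthase, had 9.38, 5.66 and 8.54 CPM in HepKO and 7.47, 8.58 and 7.55 CPM in WT, with means of 7.86 CPM in HepKO and 7.87 CPM in WT. Dut, which keeps uracil out of DNA, had 11.9, 7.67 and 6.40 CPM in HepKO and 9.36, 6.88 and 8.14 CPM in WT (log2 fold change 0.09 ± 0.25). The groups overlapped in Rrm1, Tyms and Dut.

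The genes that copy chromatin rose in 4 of 5 cases. Uhrf1, which reads DNA that carries the methyl mark on the old strand alone and brings in the maintenance methyltransferase, had 5.72, 3.30 and 3.84 CPM in HepKO and 0.473, 0.613 and 0.761 CPM in WT. Its log2 fold change was 2.79 ± 0.34 (adjusted p 7.97e-04), and all HepKO libraries were well above all WT libraries. Dnmt1, that methyltransferase, had 16.0, 21.4 and 19 CPM in HepKO and 10.5, 14.6 and 10.8 CPM in WT, a log2 fold change of 0.65 ± 0.17 (adjusted p 0.0193). The groups of Dnmt1 lay close together. Its call was lost without HepKO replicate 2 (adjusted p 0.0708), HepKO replicate 3 (0.0578), WT replicate 1 (0.0678) or WT replicate 3 (0.0755).

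Chaf1a, the large subunit of the histone chaperone that places histones on new DNA, had 12.6, 10.1 and 10.1 CPM in HepKO and 1.93, 2.54 and 3.07 CPM in WT. Its log2 fold change was 2.12 ± 0.22 (adjusted p 4.24e-04). Chaf1a shares 52.5% of its exon length with Ubxn6 on the opposite strand, whose log2 fold change was -0.01 (adjusted p 0.972). Its partner subunit Chaf1b had 3.24, 3.05 and 3.15 CPM in HepKO and 2.60, 1.78 and 1.61 CPM in WT, a log2 fold change of 0.66 ± 0.27 (adjusted p 0.0917), and it was called without WT replicate 1 (0.0439). Hells, a chromatin remodeller needed for DNA methylation, had 6.63, 4.44 and 3.99 CPM in HepKO and 1.59, 1.78 and 2.08 CPM in WT, a log2 fold change of 1.47 ± 0.27 (adjusted p 0.00462). All 5 genes of this role had all HepKO libraries above all WT libraries, as 27.1% of tested genes did.

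Clspn, Chek1 and Exo1 passed the filter on low counts through the HepKO libraries alone, so their fold changes are given as a description of genes that had to be higher in HepKO to be tested. Clspn (claspin), the adaptor that lets the checkpoint kinase Chek1 be activated, had 181, 93 and 29 counts in HepKO and 1, 7 and 3 counts in WT. That is 3.12, 2.07 and 0.737 CPM in HepKO and 0.0338, 0.195 and 0.0878 CPM in WT, a log2 fold change of 4.15 ± 0.75 (adjusted p 0.00393) that was 4.95 without WT replicate 2. Chek1 had 2.69, 2.18 and 2.08 CPM in HepKO and 0.236, 0.474 and 0.732 CPM in WT, a log2 fold change of 2.25 ± 0.44 (adjusted p 0.00548). Exo1, a nuclease of mismatch repair and end resection, had 1.07, 0.580 and 1.12 CPM in HepKO and 0.0676, 0.167 and 0.205 CPM in WT, a log2 fold change of 2.61 ± 0.58 (adjusted p 0.00936). The groups did not overlap in these 3 genes, and HepKO replicate 3 was the lowest of its group for Clspn and Chek1.

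Brca1, of homologous recombination, had 8.28, 3.81 and 2.97 CPM in HepKO and 3.21, 4.12 and 3.28 CPM in WT, and was not called (adjusted p 0.331). HepKO replicate 1 alone was above WT, and without it the log2 fold change was -0.07. Tipin, a part of the complex that steadies the fork, had 9.14, 6.95 and 6.94 CPM in HepKO and 7.16, 5.21 and 6.82 CPM in WT (log2 fold change 0.27 ± 0.20, adjusted p 0.327).

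To compare partner genes without the scaling, 7 ratios were taken within each library, as log2 of (CPM + 0.1) of the named gene over its partner. With 3 libraries against 3, the exact 2-sided permutation test cannot go below p = 0.10, so none could pass 0.05. The groups did not overlap in 4 of the 7. For single genes, 27.1% of those tested lay fully above WT in HepKO and 26.4% fully below. Such a share was not computed for ratios, and nothing is read from the count. Cdt1 over Gmnn, the loader over its inhibitor, was 0.350, 0.688 and 0.507 as a plain ratio in HepKO and 0.144, 0.144 and 0.0804 in WT. On the log2 scale the means were -1.0 ± 0.48 in HepKO and -3.0 ± 0.46 in WT (SD, n = 3 each), a difference of 2.01 (exact permutation p = 0.10, adjusted over the 7 ratios 0.175). Every HepKO library was above every WT library, and the difference ran from 1.74 to 2.26 when single libraries were left out. Chaf1a over Chaf1b had plain ratios of 3.90, 3.30 and 3.21 in HepKO and 0.740, 1.42 and 1.91 in WT, a log2 difference of 1.44 (exact permutation p = 0.10, adjusted 0.175).

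Tk1 over Tk2, the S-phase kinase over the mitochondrial one, had plain ratios of 0.641, 0.364 and 0.585 in HepKO and 0.811, 0.951 and 1.33 in WT, a log2 difference of -0.96 (exact permutation p = 0.10, adjusted 0.175). Orc1 over Orc2, a subunit not tied to the cell cycle, had a log2 difference of 2.27 (exact permutation p = 0.10, adjusted 0.175) that was 0.80 with a pseudocount of 0.5 CPM, since Orc1 in WT was near 0. Rrm2 over Rrm1 (log2 difference 0.84, exact permutation p = 0.20, adjusted 0.28), Rrm2 over the p53-induced subunit Rrm2b (0.56, p = 0.40, adjusted 0.467) and Pole over Pold1 (0.17, p = 0.80, adjusted 0.80) overlapped between the groups. The Rrm2 to Rrm2b difference was 0.10 without HepKO replicate 1. Orc1 passed the filter on low counts through the HepKO libraries alone, so nothing is read from the lack of overlap in its ratio.

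**Figure D4:**
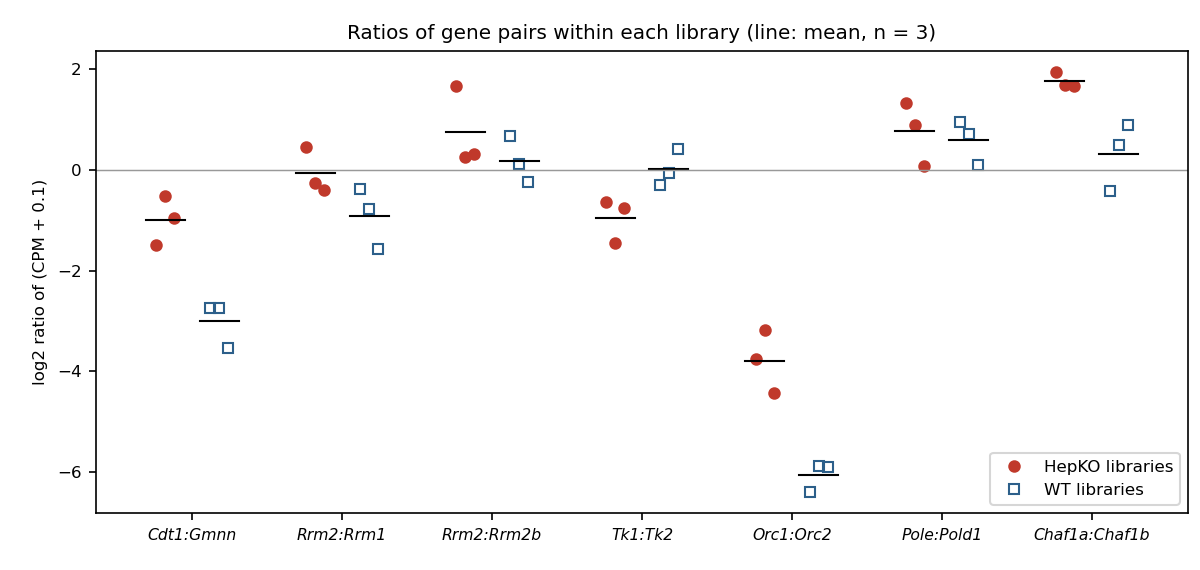
Log2 ratio of each of the 7 gene pairs within every library, with filled circles for HepKO, open squares for WT and a line at the mean (n = 3). Cdt1:Gmnn, Orc1:Orc2 and Chaf1a:Chaf1b lie higher in all HepKO libraries, Tk1:Tk2 lies lower, and the other 3 pairs overlap.

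A wider list of 84 other replication genes was read beside the 42. Of these, 81 were tested (Pold4, Dscc1 and Rad9a failed the filter on low counts), 18 were called higher, 8 lower and 55 not, with a median log2 fold change of 0.04. The 18 were 22.2% of those tested, near the 19.5% of all genes, and 11 were called higher without HepKO replicate 1. Some of the 18 passed the filter through the HepKO libraries alone, so a higher level in HepKO was a condition of their being tested. How many did was not counted. With library totals, 52 were higher and 1 lower. The counts by list that follow stand beside the same 19.5% higher and 18.7% lower over all genes. In each of 5 role lists, genes with the smallest p are named.

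Among 13 other licensing genes, 4 were higher and 2 lower, with 2 higher and 2 lower without HepKO replicate 1 and 7 higher and none lower with library totals. Dbf4, the activator of the kinase that fires origins, rose by a log2 fold change of 1.31 ± 0.23 (adjusted p 0.00339). The origin recognition subunits Orc3 (-0.42, adjusted p 0.0117) and Orc5 (-0.44, adjusted p 0.0159) fell. Both calls were lost with library totals, where the log2 fold changes were 0.09 and 0.07. Orc3 was not called without WT replicate 2 (0.0521), nor was Orc5 without HepKO replicate 3 (0.0517), WT replicate 1 (0.0532) or WT replicate 2 (0.0629). Among 20 other fork genes, 2 were higher and 2 lower, with none higher and 2 lower without HepKO replicate 1 and 12 higher and none lower with library totals. Pole4, an accessory subunit of the leading-strand polymerase, fell by 0.49 on the log2 scale (adjusted p 0.00810), and Top1, the topoisomerase that relieves twist, fell by 0.43 (adjusted p 0.0113). With library totals they were at 0.02 and 0.08. Pole2, another subunit of that polymerase, rose (1.75 ± 0.58, adjusted p 0.0463). Its call was lost in 5 of the 6 fits that leave out a library, the fit without WT replicate 3 being the exception. Pole2 had 3, 10 and 19 counts in WT and passed the filter on low counts through the HepKO libraries alone. A higher level in HepKO was thus a condition of its being tested.

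Among 16 other genes of nucleotide supply, 3 were higher and 3 lower, shares close to those over all genes, and with library totals 8 were higher and 1 lower. Shmt1, which loads folate with one-carbon units for thymidylate, had 126, 90.8 and 105 CPM in HepKO and 235, 234 and 239 CPM in WT. Its log2 fold change was -1.14 ± 0.13 (adjusted p 6.17e-04), and it was the gene still called lower with library totals (-0.63, adjusted p 0.00450). Paics, of purine synthesis, fell by 0.68 on the log2 scale (adjusted p 0.00109). With library totals it was not called (log2 fold change -0.16).

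Among 10 other chromatin genes, 1 was higher and none lower, with none higher without HepKO replicate 1 and 9 higher with library totals. Cdca7, a partner of Hells, was that gene (log2 fold change 0.74 ± 0.24, adjusted p 0.0443), and its call was lost on leaving out any library (adjusted p 0.0717 to 0.126). Lig3 (-0.35, adjusted p 0.0526), a DNA ligase of repair, and Asf1b (1.86, adjusted p 0.0582), a histone chaperone of dividing cells, were not called. Among 22 other repair and checkpoint genes, 8 were higher and 1 lower, with 6 higher and 1 lower without HepKO replicate 1 and 16 higher and none lower with library totals. Rad51ap1, a helper of the recombinase, had 80, 84 and 28 counts in HepKO and 0, 1 and 2 counts in WT, a ratio of 44.8 with a 95% counting interval of 15.1 to 219 (edgeR adjusted p 0.00171). Without WT replicate 3 the ratio was 88.4, and the gene passed the filter through the HepKO libraries alone. Fancd2, a core gene of crosslink repair, rose by 2.41 ± 0.37 (adjusted p 0.00190), and Rad18, the ligase that marks the clamp at damage, by 1.66 ± 0.28 (adjusted p 0.00275).

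General cycling genes rose almost without exception, with 8 of 9 called higher, against 19.5% of all tested genes. Without HepKO replicate 1, 7 were called higher. Mki67, the proliferation marker, had 40.4, 24.5 and 20.8 CPM in HepKO and 1.08, 2.65 and 2.93 CPM in WT, a log2 fold change of 3.67 ± 0.39 (adjusted p 4.68e-04). Ccnd1, the cyclin of cell cycle entry, had 262, 217 and 199 CPM in HepKO and 9.22, 33.7 and 31.2 CPM in WT (log2 fold change 3.19 ± 0.44, adjusted p 0.00122). The groups were far apart in both. The mitotic genes Ccnb1 (4.20 ± 0.44), Top2a (4.22 ± 0.54), Ccna2 (3.73 ± 0.41) and Cdk1 (3.17 ± 0.41) rose, as did Cdkn1a, a cyclin-dependent kinase inhibitor (1.83 ± 0.38). Of the cyclins that drive entry into S phase, Ccne1 was called (0.82 ± 0.27, adjusted p 0.0446) and lost the call in 5 of the 6 fits without a library, and Ccne2 was not (-0.04 ± 0.41, adjusted p 0.948).

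Markers of other cells were read beside these genes, again against 19.5% of all genes called higher. Of 8 tested macrophage markers 7 were higher, with a summed level of 385 to 659 CPM in HepKO and 134 to 270 CPM in WT, and HepKO replicate 1 was the highest. Of 7 tested cholangiocyte markers 4 were higher, with 161 to 586 CPM in HepKO and 56.6 to 75.4 CPM in WT, and HepKO replicate 2 was the highest HepKO library for all 8 listed. Stellate cell markers had 3 of 7 higher (301 to 418 CPM in HepKO, 94.7 to 152 CPM in WT) and lymphocyte markers 1 of 8 (6.15 to 11.2 CPM in HepKO, 3.51 to 5.35 CPM in WT). The lymphocyte count is below the share of all genes, as is that of the endothelial markers, with 1 of 7 higher (154 to 194 CPM in HepKO, 135 to 170 CPM in WT). Only 2 of 5 neutrophil markers passed the filter on low counts, and both were higher. Summed over all 5, the level was 2.90 to 11 CPM in HepKO and 0.878 to 1.81 CPM in WT. Whether the 2 passed through the HepKO libraries alone was not counted. Erythroid progenitor markers had none higher and 3 of 6 lower (144 to 165 CPM in HepKO, 208 to 307 CPM in WT). Without HepKO replicate 1, 6 macrophage markers were called higher, and the counts of the other lists in this paragraph were the same. Under 10 counts in every library were found for 1 macrophage marker (Trem2), 1 neutrophil marker (Ly6g) and 2 erythroid progenitor markers, Gata1 among them. The part of these cells in the levels of the replication genes was not tested.

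**Figure D5:**
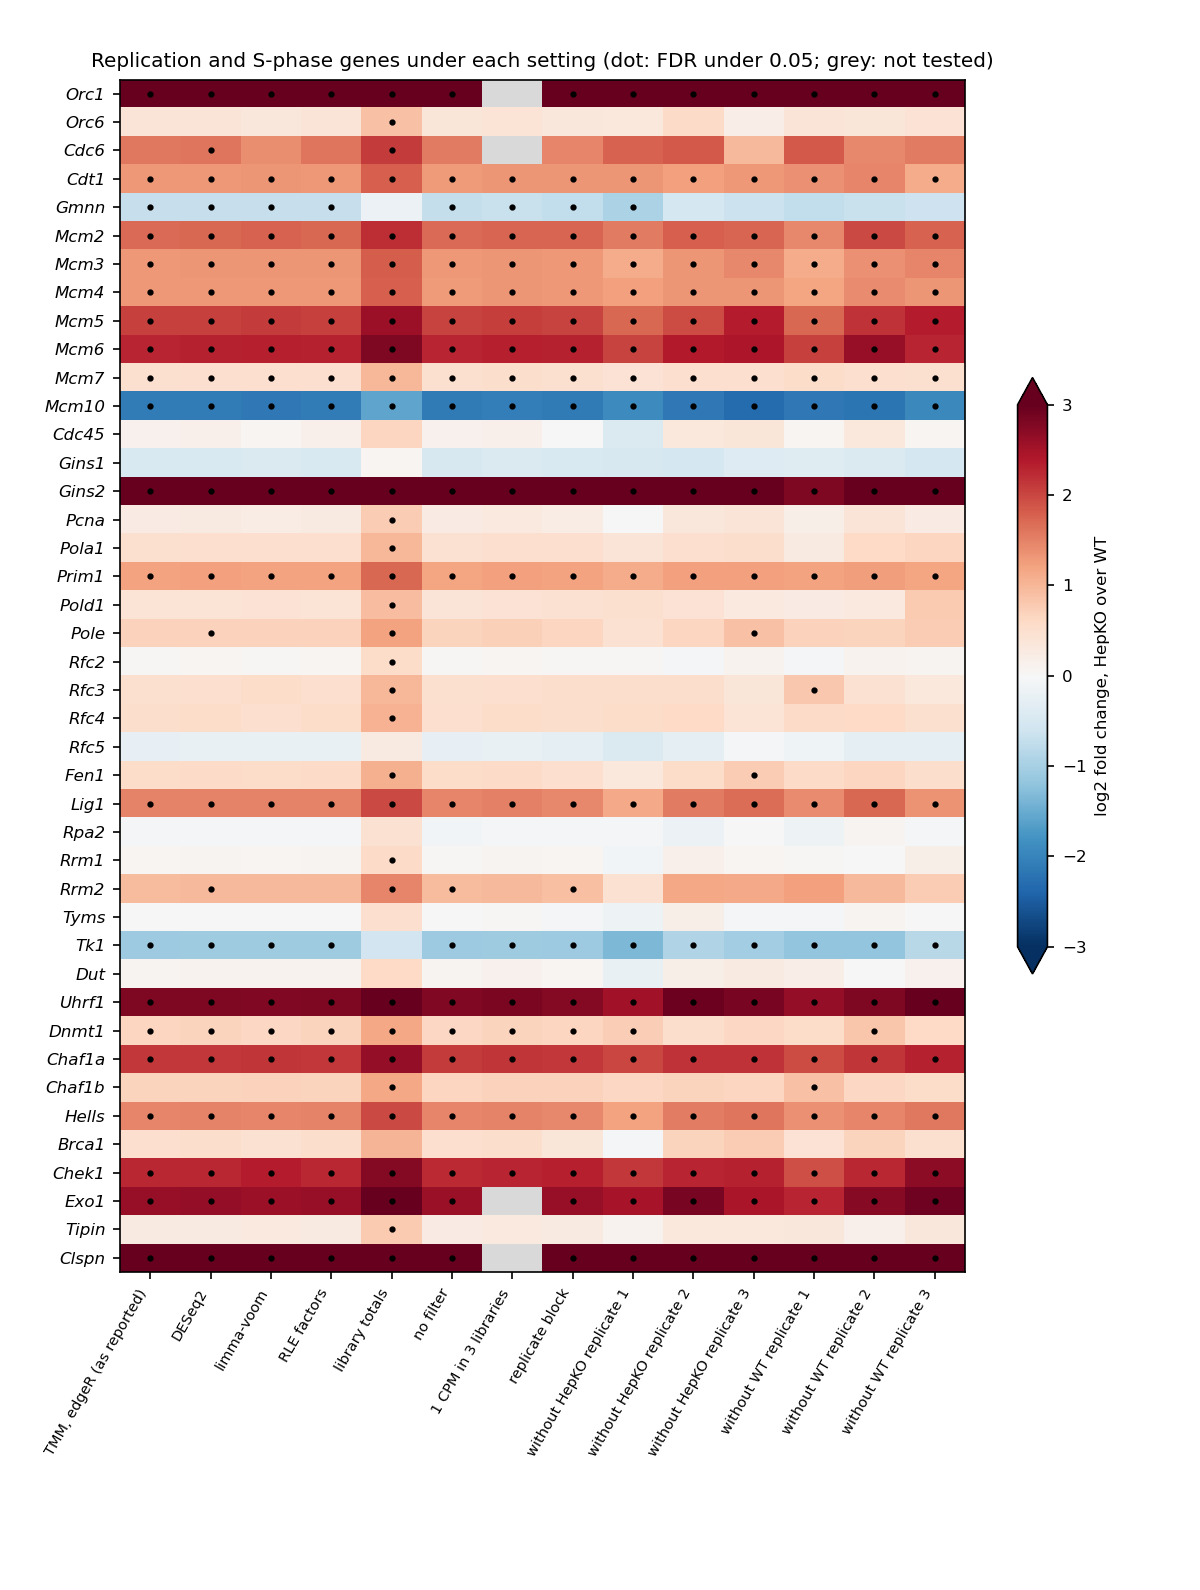
Log2 fold change (HepKO over WT, colour) of the 42 genes under the reported fit and 13 other settings, with a dot where the adjusted p is under 0.05 and grey where a gene was not tested. The MCM2-7 genes keep their dots in every column, Gmnn and Dnmt1 lose theirs in several, and the library totals column adds 14 dots and drops those of Gmnn and Tk1.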

How the data were processed

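The values are raw read counts per gene that the authors deposited for 3 HepKO and 3 WT liver libraries. Per the labels' protocols, a stranded mRNA kit was used on polyA RNA. Tools named in the submitters' processing notes are STAR 2.7.11a, featureCounts, Subread 2.0.0, edgeR 3.40.2 and bcl2fastq, with the build mm10. No source used here gives the strand setting or annotation. Of 56350 gene IDs, 55480 matched GENCODE M21. Reads shared by overlapping or near-identical genes may be misassigned.

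Groups were compared with the edgeR 4.0.16 quasi-likelihood test (R 4.3.3, TMM, filterByExpr by group, no covariate), with Benjamini-Hochberg adjustment over all 16051 genes and a threshold of 0.05. The code was tested on simulated data. SE is the log2 fold change over the root of F, and errors of CPM are SD. Ratios within libraries used a pseudocount of 0.1 CPM. Counts of libraries of a group differed beyond counting noise (chi-square over its degrees of freedom 26.6 to 131), which does not tell whether they are separate animals. The genes and lists were chosen with earlier results of these data known, so no list is independent support. Named are all 42 genes, the 3 smallest p of each other replication list, all cycling genes, ratio partners and Atg14, and markers by sums, with the sex-linked genes, overlap partners and untested genes named after their values were seen. Some items that this rule takes are not reported here. Alternatives were DESeq2 1.42.0, limma-voom 3.58.1, other scalings, filters and thresholds, a replicate block and leaving out each library.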

Additional observations from a re-analysis of the deposited data

How the results depend on the processing

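Over 15 other settings, 18 of the 21 called genes of the set kept their call in all 13 settings at the 0.05 threshold in which they were tested, and Gmnn, Tk1 and Dnmt1 did not. Orc1, Cdc6, Exo1 and Clspn were not tested under a filter of 1 CPM in 3 libraries. The direction of 32 of the 42 genes was the same in every setting. With library totals, 7442 genes were called higher and 937 lower over all genes, 32 and 1 of the set, 52 and 1 of the other replication genes, and the median log2 fold change of the set was 1.11. At an adjusted p under 0.01, 3444 genes were called (1751 higher, 1693 lower), 14 higher and 1 lower of the set, and 9 higher and 4 lower of the other replication genes. With calls limited to log2 fold changes of 1 or more in size, 2985 were left (2063 higher, 922 lower), 16 higher and 2 lower of the set, and 1 lower of the other replication genes.

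Leaving out 1 library gave 17 to 19 higher and 2 to 3 lower in the set, and 10 to 12 higher and 5 to 9 lower among the other replication genes. The Pole to Pold1 difference ran from -0.10 (without HepKO replicate 1) to 0.52 and was -0.07 without WT replicate 3. Libraries with the same replicate number did not deviate together (correlations -0.14, -0.11 and 0.03). Between different numbers the correlations ran from -0.16 to 0.22. Pairing by number was not seen, which does not exclude it. With the replicate number as a block, 5071 genes were called in all, 19 higher and 3 lower of the set, and 10 higher of the other replication genes, with Rrm2 gained (log2 fold change 0.90, adjusted p 0.0159). Without a pseudocount the Orc1 to Orc2 ratio has no value, since WT replicate 1 had no Orc1 count. For genes near 0 in WT (Orc1, Clspn, Exo1, Gins2), depth limits the size of the fold.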
